A study of Mus musculus with 22 samples.

Results

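Germinal center B cells that carry 1 productive heavy chain and 2 productive light chains made up 377 of the 5216 cells with 1 productive heavy and at least 1 productive light chain in 3 single-cell immunoglobulin libraries from mouse spleen. They were taken from the contig tables by counting productive contigs per cell barcode, and were split into 96 cells with a κ and a λ chain, 165 cells with 2 κ chains and 116 cells with 2 λ chains. No cell with 1 heavy chain had 3 or more light chains. The 4839 cells with exactly 1 heavy and 1 light chain are the comparison throughout, and 154 cells with 2 or more productive heavy chains, which the rule leaves out, stand beside them. In all, 7147 cells had a contig and 8873 cells were in the gene table.

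The mice were male C57BL/6 animals labelled as 8 weeks old. In the NP arm they received the hapten NP coupled to the carrier KLH, and NP-binding cells of the Fas-high GL-7-high B220-positive gate were sorted on day 13 (libraries NP 1 and NP 2). In the OVA arm (library OVA 1) they received ovalbumin, and the whole gate was sorted without selection for antigen binding, on a day that the labels do not give. Both immunizations were intraperitoneal with alum and LPS, and both sorts left out dead cells. Antigen and sort differ together between the arms and OVA has 1 library, so an effect of antigen and an effect of the sort cannot be told apart, and no test between arms was made. The labels do not say whether the libraries came from separate mice. With the classes of each library paired, a p-value sets the class difference against its variation over these libraries. It does not speak of variation between mice. The 16 bulk libraries of the series were not used here.

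A B cell normally shows 1 light chain, because productive rearrangement at one κ or λ allele stops further recombination. When the first receptor is autoreactive or unproductive, recombination can continue on the same κ allele, move to the other κ allele or open the λ loci, which is called receptor editing. A cell that keeps a second productive chain is said to show allelic inclusion when both chains are κ or both are λ, and isotypic inclusion when it has κ and λ. A droplet that captures 2 cells also yields 2 light chains, usually together with 2 heavy chains, unless both cells belong to one clone or 1 heavy chain is missed.

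Several groups of these cells shared the heavy V gene, J gene and CDR3 length and the same pair of light V and J genes. CDR3 sequences (the most variable part of each chain) of these groups are shown because they let both light chains be followed through possible relatives. Each sequence is the coding strand of the contig, 5′ to 3′, with capitals marking bases that differ from the commonest sequence of the group. IGH genes lie on chromosome 12, IGK genes on chromosome 6 and IGL genes on chromosome 16. The largest group was in NP 2, with 29 cells. Its commonest heavy CDR3 was in 9 cells, and 3 of its variants were in 3, 2 and 1 cells:
NP 2 heavy IGHV1-72/IGHJ2, 9 cells: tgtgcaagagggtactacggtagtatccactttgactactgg
NP 2 heavy variant, 3 cells: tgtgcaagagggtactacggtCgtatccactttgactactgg
NP 2 heavy variant, 2 cells: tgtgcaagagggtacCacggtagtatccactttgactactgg
NP 2 heavy variant, 1 cell: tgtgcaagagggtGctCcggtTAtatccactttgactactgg
NP 2 κ IGKV4-51/IGKJ5, 19 cells: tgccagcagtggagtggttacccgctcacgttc
NP 2 κ variant, 2 cells: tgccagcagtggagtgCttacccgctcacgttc
NP 2 κ variant, 2 cells: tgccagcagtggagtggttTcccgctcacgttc
NP 2 λ IGLV1/IGLJ1, 24 cells: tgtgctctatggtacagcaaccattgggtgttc
NP 2 λ variant, 1 cell: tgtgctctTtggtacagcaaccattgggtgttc

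The largest group in OVA 1 had 11 cells with 2 κ chains from different V genes, and 1 of the 2 NP 1 groups of 5 cells is shown, in which all 5 heavy CDR3s differed. In 1 cell of that NP 1 group the second κ CDR3, not printed, had 30 bases rather than 33, so a shared rearrangement is not certain. There each heavy and first κ CDR3 was in 1 cell, so capitals mark differences from the first one shown, which need not be the original:
OVA 1 heavy IGHV1-76/IGHJ2, 7 cells: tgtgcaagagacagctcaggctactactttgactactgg
OVA 1 heavy variant, 1 cell: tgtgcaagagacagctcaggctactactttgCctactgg
OVA 1 first κ IGKV1-135/IGKJ1, 10 cells: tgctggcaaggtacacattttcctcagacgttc
OVA 1 first κ variant, 1 cell: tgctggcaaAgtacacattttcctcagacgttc
OVA 1 second κ IGKV3-7/IGKJ4, 11 cells: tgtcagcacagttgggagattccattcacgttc
NP 1 heavy IGHV1-22/IGHJ1, 1 cell: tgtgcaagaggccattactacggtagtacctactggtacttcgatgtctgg
NP 1 heavy variant, 1 cell: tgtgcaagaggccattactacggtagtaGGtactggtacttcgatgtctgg
NP 1 heavy variant, 1 cell: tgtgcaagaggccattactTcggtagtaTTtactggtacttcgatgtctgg
NP 1 first κ IGKV12-41/IGKJ2, 1 cell: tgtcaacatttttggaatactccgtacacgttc
NP 1 first κ variant, 1 cell: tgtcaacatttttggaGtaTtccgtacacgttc
NP 1 second κ IGKV3-2/IGKJ5, 3 cells: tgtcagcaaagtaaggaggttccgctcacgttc

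The 3 gene expression libraries held 3765 (NP 1), 2104 (NP 2) and 3004 (OVA 1) cells with 20533741, 16161435 and 21412501 UMIs (unique molecular identifiers, one per captured transcript), and the immunoglobulin libraries held 138475, 157375 and 206661 contig UMIs. Between 6 and 8 barcodes were shared by any pair of libraries, and 1 of the 377 cells was among them. Expression was read only in cells with at least 500 genes and at most 10% mitochondrial UMIs, which kept 115 of 128 (NP 1), 102 of 102 (NP 2) and 143 of 146 (OVA 1) cells with 2 light chains that had a row in the gene table. The summed level of 6 B cell markers in cells with 2 light chains was 6360, 6567 and 6832 counts scaled to the library total (CPM), against 6370, 6857 and 7168 CPM in cells with 1 light chain. For 8 germinal center markers it was 2628, 2255 and 2031 CPM, against 2589, 2285 and 2081 CPM, so both classes carried the markers of the sorted population. All 4 NK markers were at 0 in cells with 2 light chains, and between 4 and 6 of 7 T cell markers were at 0 there.

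Cells with 2 light chains were 7.00% of cells with 1 heavy chain in NP 1 (129 of 1844, 95% exact Clopper-Pearson interval 5.87 to 8.26%), 6.97% in NP 2 (102 of 1464, 5.72 to 8.39%) and 7.65% in OVA 1 (146 of 1908, 6.50 to 8.94%). The 3 intervals overlap. These intervals cover counting error only. The kind of pair differed between libraries far more than the total. Cells with κ and λ were 2.28% (NP 1), 3.42% (NP 2) and 0.210% (OVA 1) of cells, cells with 2 κ chains were 0.922%, 0.751% and 7.18%, and cells with 2 λ chains were 3.80%, 2.80% and 0.262%. The intervals of OVA 1 overlap neither NP library in any of the 3 classes, while those of NP 1 and NP 2 overlap each other.

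**Figure D1:**
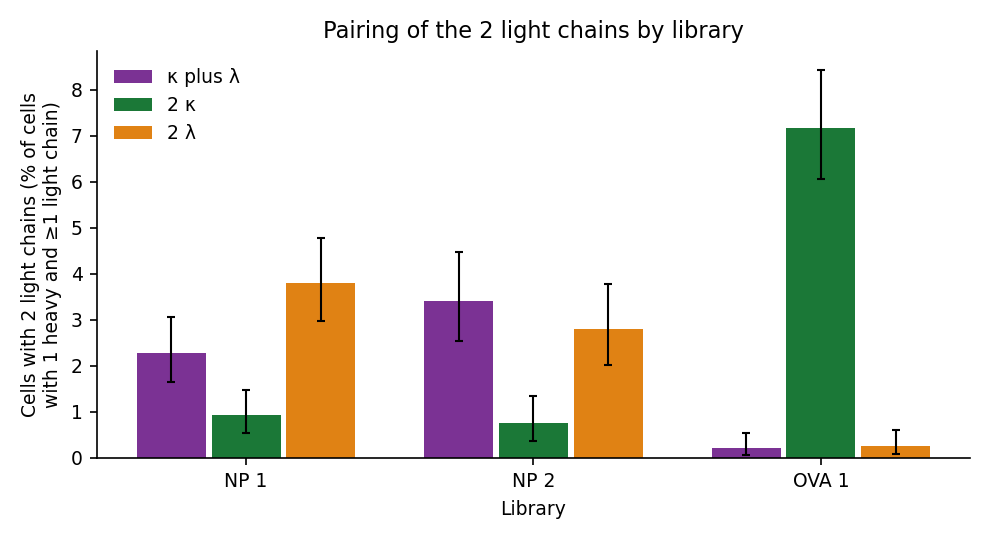
Share of cells with 1 productive heavy chain that carry κ plus λ, 2 κ or 2 λ chains (percent, y axis) in each library (x axis); bars are the observed shares and whiskers 95% exact Clopper-Pearson intervals. OVA 1 has 7.18% of cells with 2 κ chains, and both NP libraries have under 1%.

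The classes were also read per cell with a κ or a λ chain. Among cells with any κ chain, a second κ chain was present in 3.29% (17 of 516, NP 1), 3.01% (11 of 366, NP 2) and 7.43% (137 of 1843, OVA 1), and a λ chain as well in 8.14%, 13.7% and 0.217%. Among cells with any λ chain, a second λ chain was present in 5.11%, 3.57% and 7.25%, and a κ chain as well in 3.07%, 4.36% and 5.80%. Per cell with a λ chain, the share with a second λ chain had overlapping intervals in NP 1 and NP 2 (4.00 to 6.41% and 2.57 to 4.81%) and a wide one in OVA 1 (2.39 to 16.1%), where such cells numbered 5.

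Pairs were sorted by how far their chains differed. All 96 κ plus λ cells and 115 of the 165 cells with 2 κ chains had different V genes. The other 50 cells with 2 κ chains comprised 30 whose V gene, J gene and CDR3 were all alike, 15 whose CDR3s differed at 1 to 3 bases, and 5 with the same V but another J gene. Among 116 cells with 2 λ chains, 16 had different V genes, 3 another J gene and 5 clearly different CDR3s, while 60 differed at 1 to 3 CDR3 bases and 32 had the same CDR3. Pairs with the same V and J genes and at most 3 CDR3 differences are called near-identical here and the others distinct rearrangements. The mouse λ locus has few V genes, so independent λ rearrangements can look alike. Near-identical pairs may be such rearrangements, hypermutated copies of one chain, assembly of 1 transcript into 2 contigs or 2 cells in 1 droplet. The data used here cannot tell these apart. Distinct rearrangements were in 67, 64 and 109 cells, or 3.63% (2.83 to 4.59%), 4.37% (3.38 to 5.55%) and 5.71% (4.71 to 6.85%) of cells with 1 heavy chain in NP 1, NP 2 and OVA 1. Without its largest family, described below, NP 2 was at 2.44% (1.70 to 3.38%).

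Both chains were usually well covered. The weaker chain had a median of 15 (NP 1), 26 (NP 2) and 23 (OVA 1) contig UMIs and the stronger chain 34, 59 and 59, while the only chain of single-κ cells had 31, 48 and 46 and that of single-λ cells 31, 48 and 47.5. The median ratio of weaker to stronger chain was 0.514, 0.526 and 0.482. The weaker chain exceeded 0.5 of the stronger one in 65 of 129, 51 of 102 and 68 of 146 cells, and was under 0.1 of it in 12, 10 and 15 cells. It rested on 1 or 2 UMIs in 13, 4 and 5 cells.

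The ratio differed with the kind of pair. Distinct rearrangements had median ratios of 0.648, 0.667 and 0.571, and near-identical pairs 0.383, 0.240 and 0.241, so near-identical pairs were lower in all 3 libraries. In κ plus λ cells the median ratios were 0.619, 0.667 and 0.396, and no such cell was under 0.1. The λ chain was the stronger one in 17 of 42 (NP 1), 32 of 50 (NP 2) and 4 of 4 (OVA 1) κ plus λ cells. The heavy chain had a median of 5, 10.5 and 15 UMIs in cells with 2 light chains.

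**Figure D2:**
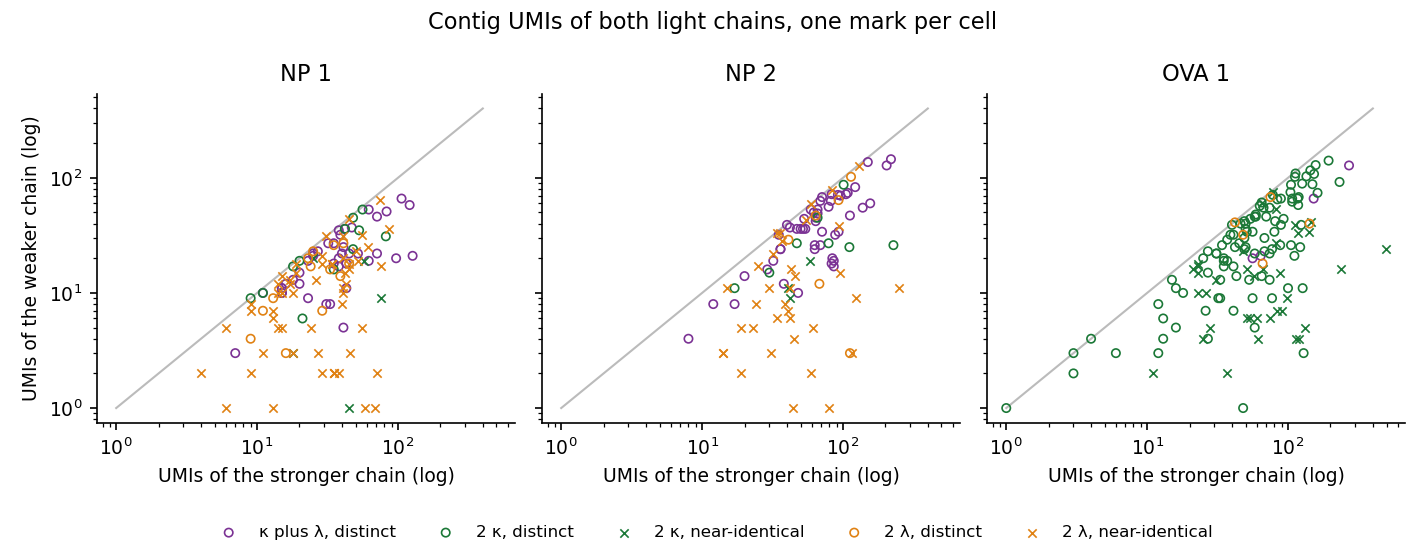
Contig UMIs of the weaker (y axis, log) against the stronger light chain (x axis, log), one mark per cell, in each library; open circles are distinct rearrangements, crosses near-identical pairs, and the grey line marks equal UMIs. Crosses lie further below the line, with median ratios of 0.383, 0.240 and 0.241, against 0.648, 0.667 and 0.571 for circles.

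The gene table, which the rule did not use, held transcripts of both chains. All 35 (NP 1), 50 (NP 2) and 4 (OVA 1) κ plus λ cells that passed the filter had at least 3 κ UMIs (Igkv genes plus Igkc) and at least 3 λ UMIs (Iglv genes). The same was true of 48.8%, 51.1% and 13.3% of cells with 2 or more heavy chains. Among cells with 1 light chain it was true of 6.50%, 7.14% and 4.76% of single-κ cells and 36.2%, 40.1% and 36.4% of single-λ cells. Single-λ cells thus often held κ transcripts without a productive κ contig, and 24.5%, 28.9% and 23.3% of them had a full-length nonproductive κ contig. When each cell was thinned to 2500 UMIs and 0 to 65 shallower cells per class were left out, at least 1 UMI of both types remained in 97.1%, 100% and 100% of κ plus λ cells, against 17.8%, 17.7% and 11.6% of single-κ cells and 43.0%, 43.6% and 49.1% of single-λ cells. Without thinning, the same cells gave 100%, 100% and 100%, against 39.5%, 37.8% and 28.8% of single-κ cells and 53.3%, 55.0% and 66.0% of single-λ cells.

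**Figure D3:**
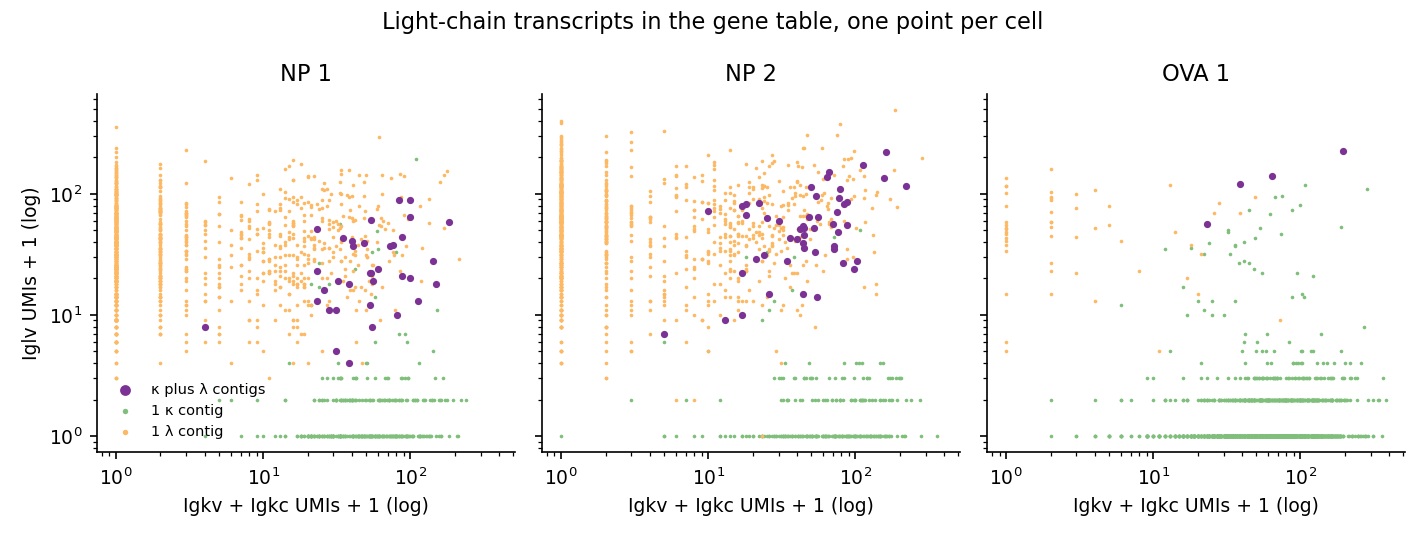
κ UMIs (Igkv plus Igkc, plus 1, x axis, log) and λ UMIs (Iglv, plus 1, y axis, log) in the gene table, one point per cell; purple points have a κ and a λ contig, green points 1 κ contig and orange points 1 λ contig. All purple points lie away from both axes, and orange points spread along the κ axis.

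In cells with 2 κ chains of different V genes, the V gene of the weaker chain was detected in the gene table in 9 of 9 (NP 1), 7 of 8 (NP 2) and 88 of 93 (OVA 1) cells. The same V genes were detected on average in 2.27%, 0.919% and 1.33% of single-κ cells whose contig used another V gene. The weaker V gene had a median of 24, 20 and 24 UMIs and the stronger 43, 56 and 56. The second κ chain was thus seen both as a contig and as gene UMIs in nearly every case. Both libraries start from the same droplet, so this does not distinguish 1 cell from 2 cells in it.

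Cells with 2 light chains held more transcripts than cells with 1. The median was 9530 UMIs in NP 1, 10130 in NP 2 and 10586 in OVA 1, against 6864, 8607 and 8041.5 in cells with 1 light chain, which are ratios of 1.39, 1.18 and 1.32. Cells with 2 or more heavy chains had medians of 11267, 13680 and 11207, or ratios of 1.64, 1.59 and 1.39. The direction was the same in 3 of 3 libraries, but 3 pairs cannot give a two-sided exact permutation p below 0.25. All 3 classes overlapped widely. The share of cells above the 95th percentile of single-light cells was 6.09%, 6.86% and 9.79% of cells with 2 light chains, and 16.3%, 27.7% and 17.8% of cells with 2 or more heavy chains.

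The pairs differed in depth among themselves. The depth ratio to cells with 1 light chain was 1.498, 1.33 and 1.24 for distinct rearrangements and 1.15, 1.03 and 1.46 for near-identical pairs. Distinct pairs were thus deeper in both NP libraries and shallower in OVA 1. The share of cells with 2 light chains was 4.52%, 4.72% and 4.90% in the lowest 25% of cells by UMIs and 13.6%, 11.5% and 11.6% in the highest 25%. Deeper cells give more chances to assemble a second contig, and droplets with 2 cells are also deeper. Both cannot be told apart from depth.

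**Figure D4:**
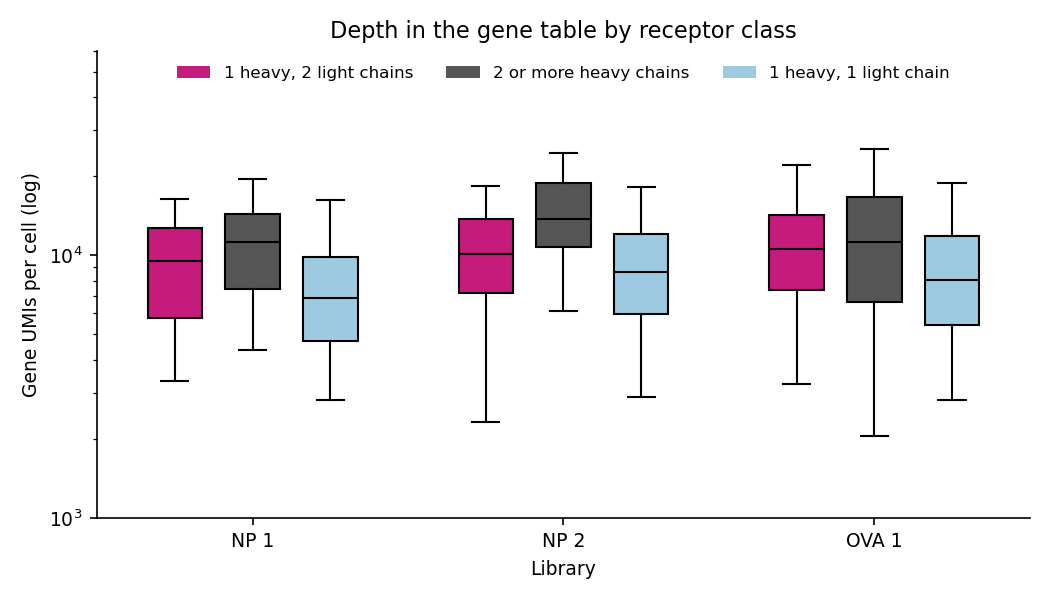
Gene UMIs per cell (y axis, log) by library (x axis) for cells with 1 heavy and 2 light chains, cells with 2 or more heavy chains and cells with 1 heavy and 1 light chain. Boxes span the quartiles with the median as a line and whiskers reach the 5th and 95th percentiles; cells with 2 light chains have medians of 9530, 10130 and 10586 UMIs, between the other classes in each library.

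A droplet with 2 unrelated cells that use different heavy V genes should hold transcripts of both. The heavy V transcripts of the gene table were therefore set against the heavy contig. Where both cells use the same V gene, no second one shows. IGHV1-72 alone was used by 56.3% (NP 1) and 62.1% (NP 2) of cells with 1 light chain, so the measure misses such droplets there. Every cell with at least 1 heavy V UMI was counted, so some shares rest on very few UMIs. More than 0.2 of the heavy V UMIs came from another V gene in 35.7% (41 of 115, NP 1), 16% (16 of 100, NP 2) and 14.7% (21 of 143, OVA 1) of cells with 2 light chains. In cells with 2 or more heavy chains the shares were 48.8%, 48.9% and 68.9%, and in cells with 1 light chain 16.9%, 17.9% and 11.7%. For cells with 2 or more heavy chains only the heavy contig with most UMIs was used. Transcripts of another contig's V gene therefore counted as outside by construction. Cells with 2 light chains lay above cells with 1 light chain in NP 1 (interval 26.9 to 45.1%, against 15.0 to 18.9%), and the intervals overlapped in NP 2 and OVA 1. IGHV genes of one family are near copies, so the counting may divide reads of 1 transcript between them, and a share in any single cell is uncertain.

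Within NP 1 the share was 48.6% (17 of 35, 31.4 to 66.0%) in κ plus λ cells, 21.4% (3 of 14) in 2 κ cells and 31.8% (21 of 66) in 2 λ cells. In NP 2 the κ plus λ cells were at 10% (5 of 50, 3.33 to 21.8%), and in OVA 1 at 0 of 4, which allows a share of up to 60.2%. The interval of κ plus λ cells in NP 1 lay above that of κ plus λ cells in NP 2 and of cells with 1 light chain, and overlapped that of cells with 2 or more heavy chains (33.3 to 64.5%). In NP 2, 29 of the 50 κ plus λ cells belonged to 1 family described below, none of which was past 0.2. The other 21 were at 23.8% (5 of 21, 8.22 to 47.2%), which overlaps the interval of NP 1. Cells with 2 or more heavy chains were 2.49%, 3.24% and 2.40% of cells with a heavy and a light chain, and 46.8%, 57.1% and 44.7% of them had 2 or more light chains.

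Sister cells, which share heavy V gene, J gene and CDR3 nucleotides, show whether a pair recurs in a clone. Of the distinct pairs, 30 (NP 1), 29 (NP 2) and 47 (OVA 1) cells had a sister. Here and in the next paragraph, light chains counted as the same only if V gene, J gene and CDR3 nucleotides were identical. A sister with a hypermutated copy therefore counted as lacking that chain. In OVA 1, 4 IGHV2-2 cells with 1 heavy CDR3 all paired IGKV4-91 with IGKV6-17, but their 4 IGKV4-91 CDR3s differed and gave no match. By this rule a sister carried the same pair for 2 (6.67%, 0.818 to 22.1%), 10 (34.5%, 17.9 to 54.3%) and 16 (34.0%, 20.9 to 49.3%) of them. Sisters carried only the stronger chain for 11, 11 and 17 cells, only the weaker for 10, 3 and 5, and neither for 4, 5 and 9. Of the cells with a sister, 22 of 30 (NP 1) and 27 of 29 (NP 2) were κ plus λ, and λ chains recur widely. The chain of single-λ cells was also seen with another heavy chain in 91.1% and 90.9% of cells, and that of single-κ cells in 67.6% and 63.9%. The part of such recurrence in these counts was not tested. In NP 1 a further 3 cells had each chain in a different sister, and NP 2 and OVA 1 had 0 such cells.

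The same contrast was seen pair by pair. Among pairs of cells with 2 distinct light chains, the light-chain pairs matched in 1 of 12 (NP 1), 17 of 43 (NP 2) and 20 of 42 (OVA 1) pairs from the same clone, against 0.591%, 4.61% and 0.770% of pairs from different clones. Pairs from different clones include relatives whose heavy CDR3s differ, as in the NP 2 group of 29 cells with 17 heavy CDR3s. Their shares are therefore not a background of unrelated cells. Pairs within a clone are not independent. In NP 2, 1 clone gave 15 of the 17 matches, and without it 2 of 7 pairs matched. In OVA 1, 1 clone gave 15 of the 20, and without it 5 of 21 matched. The only match of NP 1 was in 1 clone. Exact matching also parted relatives. In 1 NP 2 clone 9 cells paired IGKV4-51 with IGLV1, and 6 of them had the same 2 light CDR3s. In the 10 NP 2 cells whose exact pair recurred in a sister the median depth was 10013.5 UMIs, a ratio of 1.16 to cells with 1 light chain. It was 13451 UMIs (1.56) in 19 cells with sisters but no exact match, some of whose sisters held mutated copies of the pair. In OVA 1 the order was the opposite, at 11634.5 UMIs (16 cells) against 10446.5 UMIs (30 cells). NP 1 had 1 such cell with a recurrent pair that passed the filter.

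Clones were widened to families, cells with the same heavy V gene, J gene and CDR3 length and the same pair of light V and J genes, so that hypermutated relatives stay together. This can join unrelated cells, as heavy CDR3s of 1 NP 1 family differed at up to 6 bases. Families of at least 2 cells held 37 of 67 (55.2%, 13 families), 36 of 64 (56.3%, 4 families) and 46 of 109 (42.2%, 12 families) cells with distinct pairs in NP 1, NP 2 and OVA 1.

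The NP 2 family printed above paired IGHV1-72, the heavy V gene that dominates the anti-NP response of this strain, with IGLV1, its usual partner, and with IGKV4-51 as a second chain. Its 29 cells held 17 heavy, 9 κ and 6 λ CDR3s, and the heavy CDR3s differed from the commonest at a median of 1 and at most 4 bases. The κ chain had 16 to 145 UMIs (median 45) and the λ chain 12 to 219 (median 62), and the weaker chain was never below 0.198 of the stronger. The κ chain was the stronger in 9 of 29 cells. The median depth was 10075 UMIs, 1.17 times that of cells with 1 light chain, and in 0 of 29 cells did more than 0.2 of heavy V UMIs fall outside IGHV1-72. A second cell with IGHV1-72 in the droplet would not show in that share. Constant regions were IgM in 15 cells, IgG1 in 5, IgG3 in 5, IgG2b in 2 and IgG2c in 2. Beside it, 122 cells with that heavy V gene, J gene and length had the λ genes alone and 1 had the κ genes alone, although many of the 122 may belong to other clones, since this heavy and λ pairing is common in NP cells. Without this family, κ plus λ cells were 1.46% of NP 2 cells rather than 3.42%.

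**Figure D5:**
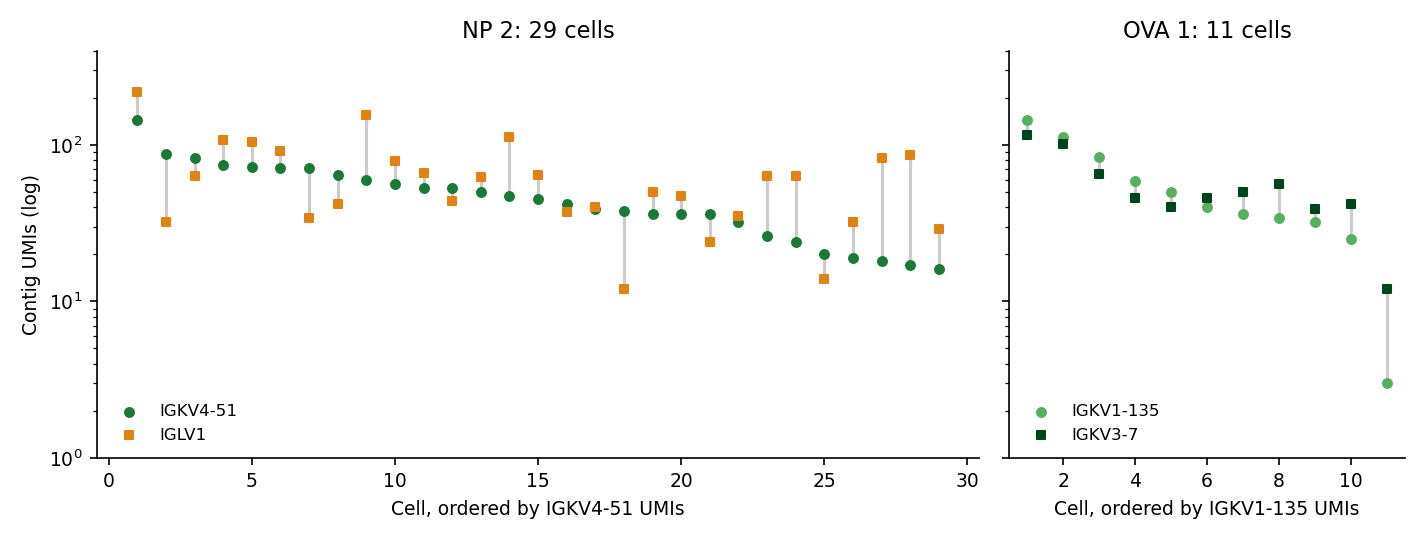
Contig UMIs (y axis, log) of both light chains in each cell (x axis) of the largest family of NP 2 (IGKV4-51 with IGLV1) and of OVA 1 (IGKV1-135 with IGKV3-7), cells ordered by the first chain. Both chains are present throughout, with medians of 45 and 62 UMIs in NP 2 and 40 and 46 UMIs in OVA 1, and the stronger chain changes from cell to cell.

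The OVA 1 family joined IGHV1-76 to IGKV1-135 and IGKV3-7. Its 11 cells had 5 heavy CDR3s that differed from the commonest at no more than 1 base, and 10 of the 11 were IgG2c. The IGKV1-135 chain had 3 to 144 UMIs (median 40) and the IGKV3-7 chain 12 to 116 (median 46), with a median ratio of 0.780. The median depth was 8288 UMIs, a ratio of 1.03, yet 6 of 11 cells had more than 0.2 of heavy V UMIs outside IGHV1-76. Only the first κ was seen in 1 further cell of that heavy V gene, J gene and length, and only the second in 6.

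Other families were smaller. The NP 1 family of IGHV1-22 with IGKV12-41 and IGKV3-2 had 5 cells with 17 to 82 and 18 to 56 UMIs for its light chains, a median ratio of 0.944 and a depth ratio of 1.58. In OVA 1, IGHV1-74 with IGKV12-44 and IGKV6-23 had 6 cells at a depth ratio of 1.57. IGHV3-6 with IGKV11-125 and IGKV3-2 had 5 cells, all IgM, at a depth ratio of 1.76, and no cell of its heavy V gene, J gene and length carried either κ chain alone. IGHV2-2 with IGKV4-91 and IGKV6-17 had 4 cells, all IgM, in which the second chain was the stronger every time. One family of 4 OVA 1 cells paired IGLV1 with IGLV2 behind IGHV1-82. Among the 10 families of at least 4 cells, depth ratios ran as high as 1.85, for 4 OVA 1 cells with IGHV1-81, and as low as 0.659, for 4 measured cells of an NP 1 family with 2 IGLV1 chains.

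V gene use set some second chains apart. In OVA 1, IGKV1-135 was in 20 of 137 cells with 2 κ chains (14.6%, 9.15 to 21.6%), against 2 of 1702 single-κ cells (0.118%, 0.0142 to 0.424%). Counted per chain, so that cells with 2 chains have no second chance, it made 20 of 274 chains (7.30%, 4.52 to 11.05%). Those 20 cells had 13 heavy rearrangements in 7 groups by V gene, J gene and length, so they were more than 1 clone, but 11 of the 20 were the IGHV1-76 family. Without that family it was in 9 of 126 cells (7.14%, 3.32 to 13.1%). IGKV1-135 was the weaker chain in 9 of the 20. In the NP libraries it was in 3 of 42 and 3 of 50 κ plus λ cells, and in 0 of 17 and 1 of 11 cells with 2 κ chains, against 2 of 457 and 12 of 305 single-κ cells. Full-length IGKV1-135 contigs were nonproductive in 92.1%, 67.1% and 68.3% of cases, against 44.0%, 50.4% and 17.9% for the other κ V genes. Most IGKV1-135 contigs were thus nonproductive in every library.

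IGKV4-51 made 30 of the 50 κ chains (60.0%) of κ plus λ cells in NP 2, against 2 of 305 single-κ cells (0.656%), and 29 of those 30 belonged to the family above. In NP 1 the κ chains of κ plus λ cells were spread, led by IGKV9-124 (6 of 42), IGKV1-110 and IGKV8-19 (5 of 42 each), against 54, 34 and 6 of 457 single-κ cells. In OVA 1, IGKV14-111 was the commonest κ gene both of cells with 2 κ chains (50 of 274 chains, 18.2%) and of single-κ cells (19.3%). IGKV8-21 made 2.19% of chains of cells with 2 κ chains (0.808 to 4.71%), against 8.99% of single-κ chains (7.67 to 10.4%). The λ chains of κ plus λ cells were IGLV1 in 92.9% (NP 1) and 86.0% (NP 2), against 92.3% and 85.8% of single-λ cells.

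The J genes of 2 distinct κ chains were the same in 3 of 12 (NP 1), 3 of 8 (NP 2) and 20 of 100 (OVA 1) cells. IGKJ5, the J segment farthest downstream and so the last that editing of one allele can reach, was in either chain of 10 of 12, 3 of 8 and 42 of 100 cells. Single-κ cells of NP 1 used it in 215 of 457 chains (47.0%), and a cell with 2 chains has 2 chances to carry it. No single-κ share is set beside the counts of NP 2 and OVA 1, so an excess of IGKJ5 cannot be read from them. Of the NP 1 cells, 5 were the IGHV1-22 family with IGKV3-2 and IGKJ5. The part of editing in these counts was not tested. A full-length nonproductive κ contig was present in 28.7% (NP 1), 19.6% (NP 2) and 13.7% (OVA 1) of cells with 2 light chains. In single-κ cells the share was 20.1%, 25.2% and 23.5%, so cells with 2 light chains were lower in OVA 1 (interval 8.57 to 20.4%, against 21.5 to 25.6%). In NP 1 and NP 2 the intervals overlapped (21.1 to 37.3%, against 16.5 to 24.1%, and 12.4 to 28.6%, against 20.5 to 30.5%).

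Heavy V genes of cells with 2 light chains were compared with those of their library. IGHV1-72 was used by 60.5% (NP 1) and 68.6% (NP 2) of them, against 56.3% and 62.1% of cells with 1 light chain. Among κ plus λ cells it was used by 59.5% and 82.0%, against 74.6% and 78.3% of single-λ cells and 6.13% and 5.90% of single-κ cells. Without the 29-cell family, 12 of 21 NP 2 κ plus λ cells used it (57.1%, 34.0 to 78.2%). In OVA 1, IGHV1-76 was used by 9.59% of cells with 2 light chains (5.34 to 15.6%), against 3.41% of cells with 1 light chain (2.61 to 4.36%). IGHV1-74 was used by 5.48% (2.40 to 10.5%), against 1.08% (0.650 to 1.68%). Of these cells, 11 of the 14 with IGHV1-76 and 6 of the 8 with IGHV1-74 belonged to the families above. Class-switched constant regions were on 51.2%, 43.1% and 41.1% of cells with 2 light chains, against 55.6%, 57.8% and 48.9% of cells with 1 light chain. The intervals did not overlap in NP 2 alone (33.4 to 53.3%, against 55.1 to 60.4%). IgG2c was on 15.1% of OVA 1 cells with 2 light chains (9.69 to 21.9%), against 6.31% of cells with 1 light chain (5.22 to 7.55%). Of those 22 cells, 10 were the IGHV1-76 family and 4 the IGHV1-74 family, so most came from these families. IgG2b went the other way, at 10.3% (5.87 to 16.4%), against 19.5% (17.7 to 21.5%).

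Few genes outside the immunoglobulin genes were called between cells with 2 light chains and cells with 1. Of 10131 genes tested on counts summed per library, 6 passed an adjusted p of 0.05 in edgeR's quasi-likelihood test with Benjamini-Hochberg adjustment, which is 0.0592% of the genes (0.0197% higher and 0.0395% lower). In all, 498 had an unadjusted p under 0.05. DESeq2 called 0 genes (64 with an unadjusted p under 0.05) and the same edgeR fit without the library block called 0 (89). DESeq2 also had the library in its model, so those 6 calls depended both on the library block and on edgeR's test.

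The gene with the smallest p was Il4i1, an amino acid oxidase of activated B cells that was on the light zone list. It was at 126, 108 and 136 CPM in cells with 2 light chains, against 169, 129 and 240 CPM in cells with 1 light chain, and fell by 0.54 on the log2 scale (SE 0.0848, adjusted p 9.13e-05). Cd72, an inhibitory coreceptor of B cells, was at 144, 95 and 175 CPM, against 171, 139 and 228 CPM (log2 change -0.37, SE 0.0791, adjusted p 0.0305). H2-Aa, an MHC class II chain, and Cks2, a cyclin-dependent kinase subunit, also fell, by 0.14 (SE 0.0297, adjusted p 0.0173) and 0.31 (SE 0.0686, adjusted p 0.0431) on the log2 scale. In every library each of these 4 genes was lower in cells with 2 light chains. The edgeR estimates of the 4 genes, each over all libraries together, lay between -0.54 and -0.14 on the log2 scale. None of the 4 passed with distinct rearrangements only (adjusted p 0.392 or more) or after thinning to 2500 UMIs (0.267 or more). Without OVA 1 none of the 4 passed (adjusted p 0.327 to 0.620), H2-Aa and Cd72 did not pass without NP 2 (adjusted p 0.392 and 0.499), and Cks2 did not without NP 1 (0.433).

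Ifitm3, an interferon-induced membrane protein, was at 4.69, 19.96 and 15.1 CPM in cells with 2 light chains, against 3.16, 4.85 and 4.77 CPM in cells with 1 light chain (log2 change 1.63, SE 0.286, adjusted p 8.33e-04). In NP 2, 15 of its 21 UMIs came from 1 cell with 2 κ chains that also held 68 UMIs of Lyz2 and 10 of Csf1r, both macrophage genes. The 7 myeloid markers together were at 12.2, 89.3 and 28.3 CPM in cells with 2 light chains, against 10.5, 10.4 and 28.0 CPM, with 6, 3 and 2 of the 7 at 0. Without cells that held 5 or more UMIs of myeloid transcripts, Ifitm3 no longer passed (log2 change 1.22, adjusted p 0.210), nor did it without NP 2 (1.38, 0.142) or OVA 1 (1.59, 0.125). The sixth call, Gm43218, a predicted gene that falls outside the rule for named genes and was named after its values were seen, rested on 42 UMIs of 1 NP 2 cell, and without NP 2 its log2 change was -1.16.

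None of the 13 measured genes of V(D)J recombination and receptor editing passed, with a median log2 change of -0.01, against 0.00 over all genes tested. The list's members included Xrcc5, Xrcc6 and Prkdc, which join broken ends, and Irf4, Irf8 and Foxo1, which act on light-chain recombination in developing B cells. Irf4 was at 28.1, 7.60 and 20.1 CPM in cells with 2 light chains, against 19.8, 13.2 and 20.6 CPM, and Foxo1 at 155, 136 and 98.0 CPM, against 129, 138 and 94.3 CPM. The surrogate light chain gene Vpreb1 had 0, 0 and 4 UMIs in cells with 2 light chains. None of 16 hypermutation and switching genes passed either, with a median log2 change of -0.05.

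Of 14 light zone genes, 1 fell (Il4i1) and 0 rose, with a median of -0.15, and of 12 dark zone genes 0 passed (median -0.02). No gene passed among 16 memory and naive B cell genes, 20 genes of receptor signaling, 42 S phase genes, 12 plasma cell genes (9 tested) or 58 nuclear-encoded genes of oxidative phosphorylation. For the last of these lists 45 of 58 log2 changes were positive, with a median of 0.05, but 23 of 58 were positive, with a median of -0.02, in the comparison matched for UMIs that is described next. Of 51 genes of the G2 and M phases, 1 fell (Cks2), with a median of -0.06.

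An alternative added after seeing the data set each cell with 2 light chains against the 3 single-light cells nearest to it in UMIs within its library. There 53 of 8877 genes passed (0.597%), with 19 higher (0.214%) and 34 lower (0.383%), and 2 of the 6 earlier calls were among them. The matching changed only the reference, which became deeper. Its median was 9521 (NP 1), 10132 (NP 2) and 10601 (OVA 1) UMIs, against 6864, 8607 and 8041.5 in all single-light cells. The part of this selection for depth in the differences was not tested. The lower genes were led by genes of mitosis. Cdc20, an activator of the anaphase-promoting complex, was at 54.4, 125 and 69.1 CPM in cells with 2 light chains, against 116, 147 and 140 CPM in the matched cells (log2 change -0.74). Ccnb1, the cyclin of mitotic entry, was at 28.1, 66.5 and 35.2 CPM, against 67.8, 73.9 and 71.5 CPM (log2 change -0.75). Tpx2, a spindle assembly factor, and Cks2 changed by -0.59 and -0.48. Of 51 G2 and M phase genes 7 fell and 0 rose, with a median of -0.24, against 0.01 over all genes tested. Against all single-light cells the median of these genes was -0.06. Their summed level was 6549, 7529 and 5500 CPM, against 7978, 7451 and 7292 CPM in the matched cells, so it was lower in NP 1 and OVA 1 and not in NP 2.

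Higher genes in that comparison were mostly small in effect. S1pr1, the receptor that guides lymphocyte exit, was at 5.63, 6.65 and 15.7 CPM, against 2.50, 2.21 and 5.45 CPM (log2 change 1.46, adjusted p 0.0219 in edgeR), which rests on 6, 7 and 25 UMIs. Foxp1, a transcription factor of resting B cells, changed by 0.34, the lymphotoxin gene Ltb by 0.23 and the receptor signaling chain Cd79b by 0.16 on the log2 scale. For cells with 2 or more heavy chains the same matching gave 505 of 7529 genes (6.71%), with 224 higher (2.98%) and 281 lower (3.73%). Of the G2 and M phase genes 23 of 51 fell there, with a median of -0.52. Without matching, cells with 2 or more heavy chains gave 4 of 10083 genes (0.0397%), with 3 higher (0.0298%) and 1 lower (0.00992%), and 537 had an unadjusted p under 0.05. The difference between those cells and the cells with 2 light chains was not tested, and both comparisons share the single-light cells from which the matched ones were drawn.

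κ plus λ cells gave 8 of 9960 genes in edgeR (0.0803%), of which 6 were higher (0.0602%) and 2 lower (0.0201%), and 409 had an unadjusted p under 0.05. Klf2, a transcription factor of resting lymphocytes that is low in germinal centers, was at 31.9, 54.6 and 371 CPM, against 14.3, 19.9 and 33.3 CPM in cells with 1 light chain (log2 change 1.85, SE 0.291, adjusted p 4.28e-07). It was detected in 3 of 35, 9 of 50 and 2 of 4 κ plus λ cells, and its UMIs there were 11, 28 and 18. Without OVA 1 its log2 change was 1.33 (adjusted p 0.0201). Single-κ cells were at 31.8, 41.0 and 32.8 CPM, so κ plus λ cells of NP 1 were level with them, and a test against single-κ cells was not made. In the 4 OVA 1 κ plus λ cells the 8 germinal center markers summed to 721 CPM, against 2081 CPM in cells with 1 light chain, and the 16 memory and naive B cell genes to 3812 CPM, against 2160 CPM. In NP 1 and NP 2 κ plus λ cells the germinal center markers summed to 2610 and 2217 CPM, against 2589 and 2285 CPM. The part of these markers in the changes of Klf2, Capg, Plac8 and S100a10 was not tested. Msmo1, an enzyme of sterol synthesis, was at 17.4, 25.4 and 20.6 CPM, against 75.8, 50.9 and 67.2 CPM (log2 change -1.50, adjusted p 0.00656). Msmo1 did not pass without NP 1 (adjusted p 1.00) or NP 2 (0.333). Sub1, a transcription coactivator, rose by 1.06 on the log2 scale, but by 0.03 without OVA 1, and the predicted gene Gm42418 fell by 0.50. Capg, Plac8 and S100a10, named after their values were seen, were high in OVA 1 alone, at 598, 804 and 536 CPM in its 4 κ plus λ cells, and none kept a positive change without that library. Matched for UMIs, κ plus λ cells gave 3 of 5084 genes (0.059%), of which Klf2 and Malat1 were higher (0.0393%) and Msmo1 lower (0.0197%).

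Cells with 2 κ chains against single-κ cells gave 1 of 8662 genes (0.0115%; 194 with an unadjusted p under 0.05), the same Ifitm3 with a log2 change of 2.37 (SE 0.439, adjusted p 0.00652 in edgeR), 15 of whose UMIs in NP 2 were again those of the 1 cell with Lyz2. Matched for UMIs, 7 of 5060 genes passed (0.138%), all lower. These were Cdc20, Plk1 and Cks2 of mitosis, the tubulins Tuba1b, Tubb4b and Tubb5, and the histone variant H2afx, with log2 changes between -1.09 and -0.35. Tuba1b was at 925, 494 and 541 CPM in cells with 2 κ chains, against 1318, 875 and 758 CPM in matched single-κ cells.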

How the data were processed

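Per the submitters' processing notes, the libraries were processed with Cell Ranger against the mm10 build, with versions not given in the sources used here. Deposited files hold UMI counts per gene and cell, and contigs with their UMI counts, as the authors' pipeline wrote them; no other filter by the authors is stated in the labels. No column belonged to another sample (0 found).

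Productive contigs were counted per barcode, and cells were classed by their number of heavy and light chains. No doublet caller was run. Cells with at least 500 genes and at most 10% mitochondrial UMIs entered expression. Counts were summed per library and class, 226 immunoglobulin genes were removed (14181 of 14407 genes left), and classes were compared with edgeR 4.0.16 (R 4.3.3; filterByExpr, TMM, quasi-likelihood test). The library was a block, because both classes of a comparison come from the same library; Benjamini-Hochberg adjustment ran over all genes tested, at 0.05. DESeq2 1.42.0 was an alternative. The scripts were tested on simulated data. Shares have exact Clopper-Pearson 95% intervals. Other tools were Python 3.11.15, pandas 2.3.3, numpy 2.4.6, scipy 1.17.1 and matplotlib 3.10.9.

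Genes were named if past the threshold, of one sign in all 3 libraries and among the 12 largest in a direction, or on a list of 20 or fewer; V genes if at least 5% of chains in a class. Cells and lists were chosen with earlier results of these data known. The split into distinct and near-identical pairs, the families and the matching by UMIs were chosen after seeing the data.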

Additional observations from a re-analysis of the deposited data

Results flagged for a closer look

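Cells with no productive heavy chain lie outside the comparisons above, and some of them also carried 2 or more productive light chains. They were 9.77% in NP 1 (91 of 931 cells with at least 1 light chain, 95% exact interval 7.94 to 11.9%), 6.18% in NP 2 (17 of 275, 3.64 to 9.71%) and 4.79% in OVA 1 (21 of 438, 2.99 to 7.24%). They are listed because no comparison above uses them. NP 1 lies above OVA 1 without overlap of the intervals. What these cells are was not tested.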

How the results depend on the processing

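Counting only distinct rearrangements gave shares of 3.63% (NP 1), 4.37% (NP 2) and 5.71% (OVA 1). Without the largest family NP 2 fell to 5.09%, and requiring a different V gene, J gene or CDR3 gave 6.29% in OVA 1. The depth ratio of NP 1 was 1.26 with no filter on cells, and distinct pairs gave 1.498 in NP 1 and 1.33 in NP 2. With at least 10 heavy V UMIs, the share of cells past 0.2 outside the contig's V gene was 52.2% in NP 1 (12 of 23) and 8.79% in OVA 1 (8 of 91). Cells with 1 light chain were then at 21.0% and 8.61%. In NP 2 the shares were 17.9% and 18.5%, in that order. Cells with 2 light chains gave 0 called genes without the replicate block (89 with an unadjusted p under 0.05), 0 in DESeq2 (64) and 0 after thinning (390), 2 without the deepest cells, 2 for distinct pairs, 3 without the largest family, 14 with no filter on low counts and 53 after matching. Leaving out a library gave 2 (OVA 1) to 16 (NP 1). κ plus λ cells gave 0 without the block (287), 1 in DESeq2, 3 after matching and 5 (OVA 1) to 8 (NP 2) without a library. Cells with 2 κ chains gave 0 without the block (74), 0 in DESeq2 (22), 7 after matching and 0 (OVA 1) to 3 (NP 1) without a library. Cells with 2 or more heavy chains gave 0 without the block (185), 0 in DESeq2 (92), 505 after matching and 1 (OVA 1) to 17 (NP 1) without a library. Some genes changed sign. Gm43218 in cells with 2 light chains was -0.17 in DESeq2 and -1.16 to 3.73 without a library, and in κ plus λ cells -7.14 to 5.32. Without a library, Capg was -0.0058 to 1.71, Plac8 -0.57 to 2.96, S100a10 -0.014 to 4.15 and, in cells with 2 or more heavy chains, Hist2h4, named after its values were seen, -0.069 to 2.09. In total 34 values of the main results stayed close and 35 moved, and of values of named genes 71 kept their call, 80 lost it and 7 reversed. The cause was not tested. The κ plus λ values of OVA 1 rest on 4 cells.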
